A study of Saccharomyces cerevisiae with 18 samples.

Results

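The 43 genes described here encode the transcription factor Gcn4 and 42 enzymes or enzyme subunits of amino acid biosynthesis in the budding yeast Saccharomyces cerevisiae. They were taken by name, as the probe sets that the array's annotation maps to a list of these genes. All 43 were found among 5659 features tested, each with 1 probe set, and all 43 passed the filter on low values. The enzymes fall into 5 genes of arginine, 5 of histidine, 8 of isoleucine, valine and leucine (the branched-chain amino acids), 7 of lysine, 9 of the aromatic amino acids, 6 of the aspartate family and serine, and 2 of nitrogen assimilation.

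Yeast makes its amino acids from intermediates of central metabolism, and many of the enzymes answer to a shared system known as general amino acid control. When amino acids run short, uncharged transfer RNA activates the kinase Gcn2, translation slows, and translation of the GCN4 message increases, so Gcn4 protein can rise without more GCN4 RNA. Gcn4 then activates genes of many of these pathways, and it is known to recruit SWI/SNF and other coactivators to some of them. SWI/SNF is a complex that moves nucleosomes.

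RNA was measured on 18 Affymetrix arrays from strain BY4741, with 3 arrays in each of 6 groups, described by the series design as separate biological samples. The groups were the swi3 mutant with and without Congo Red, the rlm1 mutant with and without Congo Red, and the wild type with and without Congo Red. The dye, which attaches to cell wall chitin and glucans, was given at 30 µg/ml, and all cultures were collected after 4 h. Swi3 is a core subunit of SWI/SNF, and Rlm1 is a transcription factor of the cell wall integrity pathway. All 6 groups share the BY4741 background, which lacks functional HIS3, LEU2, MET17 and URA3, so every strain depends on histidine, leucine and methionine from outside. The labels name neither the medium nor how many clones each mutant stands for. The values are log2 probe set levels, so a difference of 1 is a doubling. Differences were tested with limma, with p-values adjusted over all 5659 features, and a gene was called when the adjusted p was under 0.05.

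The arrays differed in ways that touch every comparison between strains. The median level of all features was 9.58 to 9.70 on the swi3 arrays and 9.98 to 10.04 on the wild-type arrays and on numbers 2 and 3 of rlm1, while number 1 of rlm1 stood apart at 9.29 under Congo Red and 9.27 in its absence. The median SD within a group was 0.42 and 0.41 in rlm1, against 0.11 and 0.10 in the wild type. RLM1 averaged 4.82 and 4.78 in rlm1 with and without Congo Red, against 10.44 and 9.26 in the wild type, and SWI3 averaged 3.37 and 3.26 in swi3 against 9.54 and 9.55. Of 4 markers of alpha cells, 3 were under 7 in every group, and none of 5 markers of a cells was. BY4741 is of mating type a. Of 6 markers of sporulating cells, 4 and 5 were under 7 in swi3 with and without Congo Red. In rlm1 2 were under 7 in both conditions, and in the wild type 0 with the dye and 1 without it. On the wild-type arrays these 6 averaged 7.39 to 8.02. Whether the cultures held sporulating cells was not tested. Most control probe sets that should see no yeast RNA stayed under 7 (36 of 47 on every array), so lower levels are read here as near background. In these bulk cultures, fewer cells with a transcript and less transcript per cell cannot be told apart.

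Most of these genes were strongly expressed. With and without Congo Red, their median level was 11.62 and 11.66 for swi3, 12.05 and 12.04 for rlm1 and 12.03 and 12.43 for the wild type, against medians of all features between 9.64 and 10.03. Of the 43, 38 averaged at least 10 over all arrays. GCN4 was the highest, with a mean of 13.47, above 97.5% of all features, and ILV5, which encodes the acetohydroxyacid reductoisomerase of branched-chain synthesis, followed at 13.32. The lowest were ARG3 (7.34), the gene of ornithine carbamoyltransferase, and ARG1 (8.43), the gene of argininosuccinate synthetase. Levels of different probe sets also depend on their probes, so this order is only a rough guide to abundance.

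GCN4 RNA was nearly the same on every array. It read 13.54, 13.54 and 13.48 in swi3 with Congo Red and 13.54, 13.52 and 13.40 in swi3 without it. It read 13.14, 13.57 and 13.51 in rlm1 with Congo Red and 13.24, 13.50 and 13.54 in rlm1 without it. The wild type read 13.47, 13.49 and 13.49 with Congo Red and 13.53, 13.43 and 13.53 without it. Apart from number 1 of both rlm1 groups, all arrays lay within a narrow band and the groups overlapped. None of the 9 comparisons called it in limma. The difference between swi3 and the wild type without dye was -0.01, with a 95% interval from -0.29 to 0.27 (adjusted p = 0.956). Because all features together shifted down in swi3, GCN4 lay 0.40 above the median of all features in that comparison. With arrays centred on their medians it was called higher at 0.36 (adjusted p = 0.0369, limma). The shift was smaller among strongly expressed features, with a median of -0.26 over the 2546 features with a mean of at least 10. GCN4 is among the highest of these, and centring does not allow for level. Whether GCN4 differs from features of its own level was not tested. Centring also gave a call with Congo Red, at 0.38 (adjusted p = 0.0258, limma), where the difference had been 0.04.

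The loss of Swi3 gave the largest differences among these genes, and they did not go one way. Without dye, 9 of the 43 were called between swi3 and the wild type, 2 higher and 7 lower. That is 20.9%, against 26.2% of all features, so the genes as a group were not called more often than others. The lower calls made up 16.3% of the genes against 22.4% of all features, and the higher calls 4.65% against 3.8%. With Congo Red, 8 were called, 2 higher and 6 lower, or 18.6% against 22.1% of all features. The lower calls were then 14% against 18.9%, and the higher calls 4.65% against 3.23%. The median difference was -0.12 without dye and -0.03 with it, against -0.41 and -0.37 over all features, so the typical gene of the group stood 0.29 and 0.34 above the general shift. The distance was smaller among strongly expressed features. Among the 2546 features with a mean of at least 10, the median difference was -0.26 without dye and -0.21 with it, and for the 38 genes in that range it was -0.08 and 0.01. All 3 swi3 arrays lay below all 3 wild-type arrays for 15 of the 43 genes without dye (34.9%, against 66.2% of all features) and above them for 2 (4.65%, against 8.43%). With Congo Red the counts were 9 below (20.9%, against 58.4%) and 5 above (11.6%, against 8.04%).

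How the arrays are put on a common scale changes the direction of many of the smaller differences and the balance of higher and lower calls. With each array centred on its median, 15 genes were called without dye (11 higher, 4 lower), when 831 of 5659 features were higher and 863 lower. With dye 16 were called (12 higher, 4 lower), when 16% of all features were higher and 16% lower. Quantile normalization gave 5 higher and 7 lower without dye, against 14% and 14.3% of all features, and 10 higher and 6 lower with dye, against 16.8% and 16.6%. The swi3 arrays also differed in control signals of RNA handling. The difference between 3′ and 5′ probe sets of control genes averaged 0.82 and 1.04 in swi3 with and without dye, against 0.75 and 0.77 in the wild type. The 3′ probe set of 25S ribosomal RNA averaged 7.13 and 10.74 against 8.70 and 9.76, lower with dye and higher without it. Its 5′ probe set averaged 5.77 and 6.90 against 6.51 and 6.48. Their part in the results was not tested. The genes LYS9, LYS12, LYS20 and ILV6 were called in the same direction under all 26 alternative settings in both dye conditions, and HIS4 was so without dye. For these genes, only quantile normalization, centring and leaving out 1 of the arrays compared can change the difference itself. In the other settings its direction was fixed, and only the spread or the adjustment could change.

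**Figure D1:**
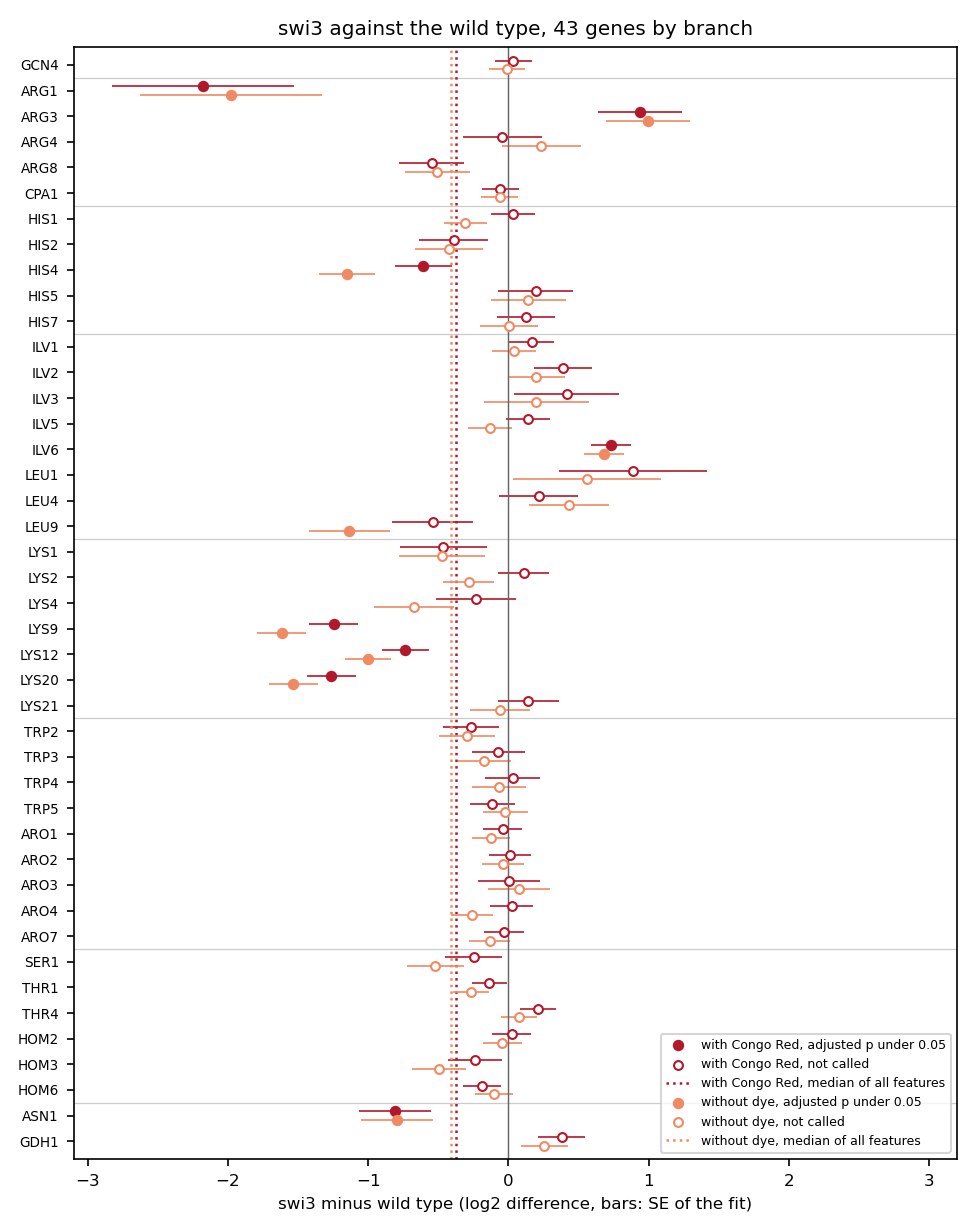
Difference between swi3 and the wild type in log2 units for the 43 genes, grouped by branch, with Congo Red (dark) and without it (light). Points are differences of group means (n = 3 arrays each), bars are the fit's SE, filled points passed an adjusted p of 0.05, and dotted lines mark the median of all features, -0.37 with Congo Red and -0.41 without it. ARG1, LYS9 and LYS20 lie farthest to the left, and ARG3 and ILV6 are the filled points on the right.

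The lysine branch held 3 of the 7 lower calls. LYS20 encodes a homocitrate synthase, the first enzyme committed to lysine. It read 11.07, 11.01 and 10.98 in swi3 against 12.55, 12.52 and 12.59 in the wild type without dye. With Congo Red it read 10.65, 10.83 and 10.26 in swi3 against 11.88, 11.82 and 11.83 in the wild type. Every swi3 array lay below every wild-type array under the same condition. LYS20 fell 2.89-fold without dye (log2 difference -1.53, SE 0.18, adjusted p = 2.59e-05, limma) and 2.40-fold with it (-1.26, SE 0.18, adjusted p = 1.3e-04).

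Its paralog LYS21 encodes the second homocitrate synthase, so the cell has both genes for the same reaction. LYS21 read 11.03, 11.01 and 10.91 in swi3 against 10.95, 10.76 and 10.81 in the wild type with Congo Red, and 10.93, 10.87 and 10.97 in swi3 against 10.95, 11.15 and 10.85 in the wild type without it. The groups overlapped in both conditions. The differences were 0.14 and -0.06, with 95% intervals from -0.32 to 0.60 and from -0.52 to 0.40 (adjusted p = 0.626 and 0.832). Whether LYS20 and LYS21 differ in their change was not tested, and short probes of paralogs can bind each other's transcripts.

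LYS9 and LYS12 act later in the same branch. LYS9, the gene of the saccharopine dehydrogenase that joins glutamate to the lysine precursor, read 11.15, 10.87 and 10.74 in swi3 against 12.34, 12.24 and 11.92 in the wild type with Congo Red. Without dye it read 11.03, 11.04 and 10.74 in swi3 against 12.67, 12.61 and 12.38 in the wild type. It was lower on every swi3 array, 2.37-fold with dye (-1.25, SE 0.17, adjusted p = 1.38e-04) and 3.07-fold without (-1.62, SE 0.17, adjusted p = 1.45e-05, limma).

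LYS12, the gene of homoisocitrate dehydrogenase, read 11.48, 11.49 and 11.44 in swi3 against 12.13, 12.31 and 12.17 in the wild type with Congo Red, and 11.43, 11.58 and 11.44 against 12.48, 12.54 and 12.44 without it. Again no array overlapped. It fell by 0.73 with dye (adjusted p = 0.00565) and by 1.00 without it (adjusted p = 6.22e-04, limma). The other lysine genes were not called in this fit. LYS1, which encodes the last enzyme of the pathway, differed by -0.46 and -0.47 with and without dye, LYS4 (homoaconitase) by -0.23 and -0.67, and LYS2 (aminoadipate reductase) by 0.11 and -0.28.

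ARG1 and ARG3 encode neighbouring steps of the arginine pathway and went opposite ways. ARG1 read 8.38, 7.46 and 6.05 in swi3 against 10.13, 9.93 and 8.36 in the wild type with Congo Red, and 8.66, 7.76 and 6.47 in swi3 against 10.25, 9.97 and 8.60 in the wild type without it. The spread within each group was large, number 3 was lowest in each, and the groups just overlapped. ARG1 fell by 2.18 with dye (SE 0.65, adjusted p = 0.0261) and fell by 1.98 without it (SE 0.65, adjusted p = 0.0372, limma).

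These calls rest on few arrays. Without dye the call was lost with quantile normalization, with centred arrays, and without number 1 or 2 of the wild type or number 2 or 3 of swi3. With dye it was lost with quantile normalization and without number 1 or 2 of the wild type or number 2 or 3 of swi3. With numbers paired across strains as a block, which the labels do not state, ARG1 stayed called. Its adjusted p in limma was then 0.0057 with dye and 0.00882 without it. Number 3 of swi3 read under 7, so its difference may be understated.

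ARG3 read 8.38, 8.43 and 8.27 in swi3 against 7.53, 7.43 and 7.31 in the wild type with Congo Red. Without dye it read 8.13, 8.15 and 7.85 in swi3 against 7.07, 7.25 and 6.83 in the wild type. All swi3 arrays were higher. ARG3 rose by 0.94 with dye (SE 0.30, adjusted p = 0.0371) and by 0.99 without it (SE 0.30, adjusted p = 0.0272, limma). Of its 6 wild-type values 5 lie just above the level of 7 and 1 below it. With dye the call was lost with a trended and robust prior (adjusted p = 0.0583). In both conditions it was lost when any 1 of the 6 arrays compared was left out, except number 3 of swi3 without dye, with the difference then between 0.88 and 1.09. ARG4 (argininosuccinate lyase) and CPA1 (a subunit of carbamoyl phosphate synthetase) differed by -0.04 and -0.06 with dye and by 0.24 and -0.06 without it, and ARG8 (acetylornithine aminotransferase) by -0.55 and -0.51. None of these was called.

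In the histidine branch only HIS4 was called, among 5 genes. HIS4, a classic Gcn4 target, encodes a protein that carries out several steps of the pathway. It read 11.65, 11.64 and 11.63 in swi3 against 12.75, 12.96 and 12.66 in the wild type without dye, and 11.53, 11.32 and 11.41 against 12.14, 12.14 and 11.80 with Congo Red. No array overlapped. HIS4 fell by 1.15 without dye (SE 0.20, adjusted p = 0.00108) and by 0.61 with it (SE 0.20, adjusted p = 0.0436, limma). The second call was lost in 12 of 26 alternative settings, centring among them, where the difference was -0.26. The other histidine genes ranged from -0.39 (HIS2) to 0.20 (HIS5) with dye and from -0.42 (HIS2) to 0.14 (HIS5) without it.

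The branched-chain genes had the highest branch median in swi3, at 0.30 with dye and 0.20 without it, against -0.46 and -0.67 for lysine. ILV6 encodes the regulatory subunit of acetolactate synthase, through which valine restrains the pathway. It read 13.22, 13.08 and 12.93 in swi3 against 12.45, 12.44 and 12.14 in the wild type with Congo Red, and 13.17, 13.08 and 12.91 against 12.47, 12.41 and 12.23 without it. Every swi3 array was higher. ILV6 rose by 0.73 with dye (SE 0.14, adjusted p = 0.00229) and by 0.68 without it (SE 0.14, adjusted p = 0.00392, limma). ILV2, the gene of the catalytic subunit, differed by 0.39 with dye and 0.20 without it and was not called (adjusted p = 0.167 and 0.439).

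LEU4 and LEU9 both encode alpha-isopropylmalate synthase, which opens the leucine branch. LEU9 read 10.41, 10.09 and 9.68 in swi3 against 11.34, 11.31 and 10.93 in the wild type without dye, and 10.09, 9.82 and 8.99 against 10.57, 10.30 and 9.65 with Congo Red. The groups were apart without dye and overlapped with it. LEU9 fell by 1.13 without dye (SE 0.29, adjusted p = 0.0116, limma), and the difference of -0.54 with dye was not called (adjusted p = 0.173). The call without dye was lost with centred arrays and without number 3 of swi3.

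LEU4 read 13.08, 12.92 and 12.32 in swi3 against 12.87, 12.77 and 12.03 in the wild type with Congo Red, and 13.19, 13.01 and 12.41 against 12.61, 12.72 and 11.98 without it. It was not called, with differences of 0.22 (95% interval from -0.39 to 0.82) and 0.43 (from -0.17 to 1.04). ARO3 and ARO4, which encode the paired enzymes at the entry to aromatic amino acids, one restrained by phenylalanine and the other by tyrosine, showed little. ARO3 read 12.48, 12.25 and 11.99 in swi3 against 12.40, 12.46 and 11.85 in the wild type with Congo Red, a difference of 0.00. ARO4 read 12.81, 12.77 and 12.63 in swi3 against 12.87, 12.78 and 12.49, a difference of 0.02. Without dye the differences were 0.08 for ARO3 and -0.26 for ARO4. None of the 9 aromatic genes and none of the 6 of the aspartate family and serine was called in either condition, and at an unadjusted p under 0.05 there were 0 aromatic genes in either and 2 (SER1 and HOM3) of the other branch without dye. Of all 5659 features, 2438 had such a p without dye and 2185 with it.

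ASN1, one of the asparagine synthetase genes, read 12.25, 12.27 and 11.26 in swi3 against 12.83, 12.92 and 12.45 in the wild type with Congo Red, and 12.45, 12.39 and 11.72 against 12.98, 13.12 and 12.84 without it. No array overlapped within a condition. ASN1 fell by 0.81 with dye (adjusted p = 0.0351) and by 0.79 without it (adjusted p = 0.035, limma). The calls were lost with centred arrays, where the differences were -0.46 and -0.43, and without number 3 of swi3, where they were -0.47 and -0.56, and also without number 1 or 2 of the wild type in either condition, and without number 3 of the wild type or number 2 of swi3 when no dye was given. GDH1, which encodes the main glutamate dehydrogenase of ammonia assimilation, differed by 0.38 with dye and 0.26 without it and was not called.

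**Figure D2:**
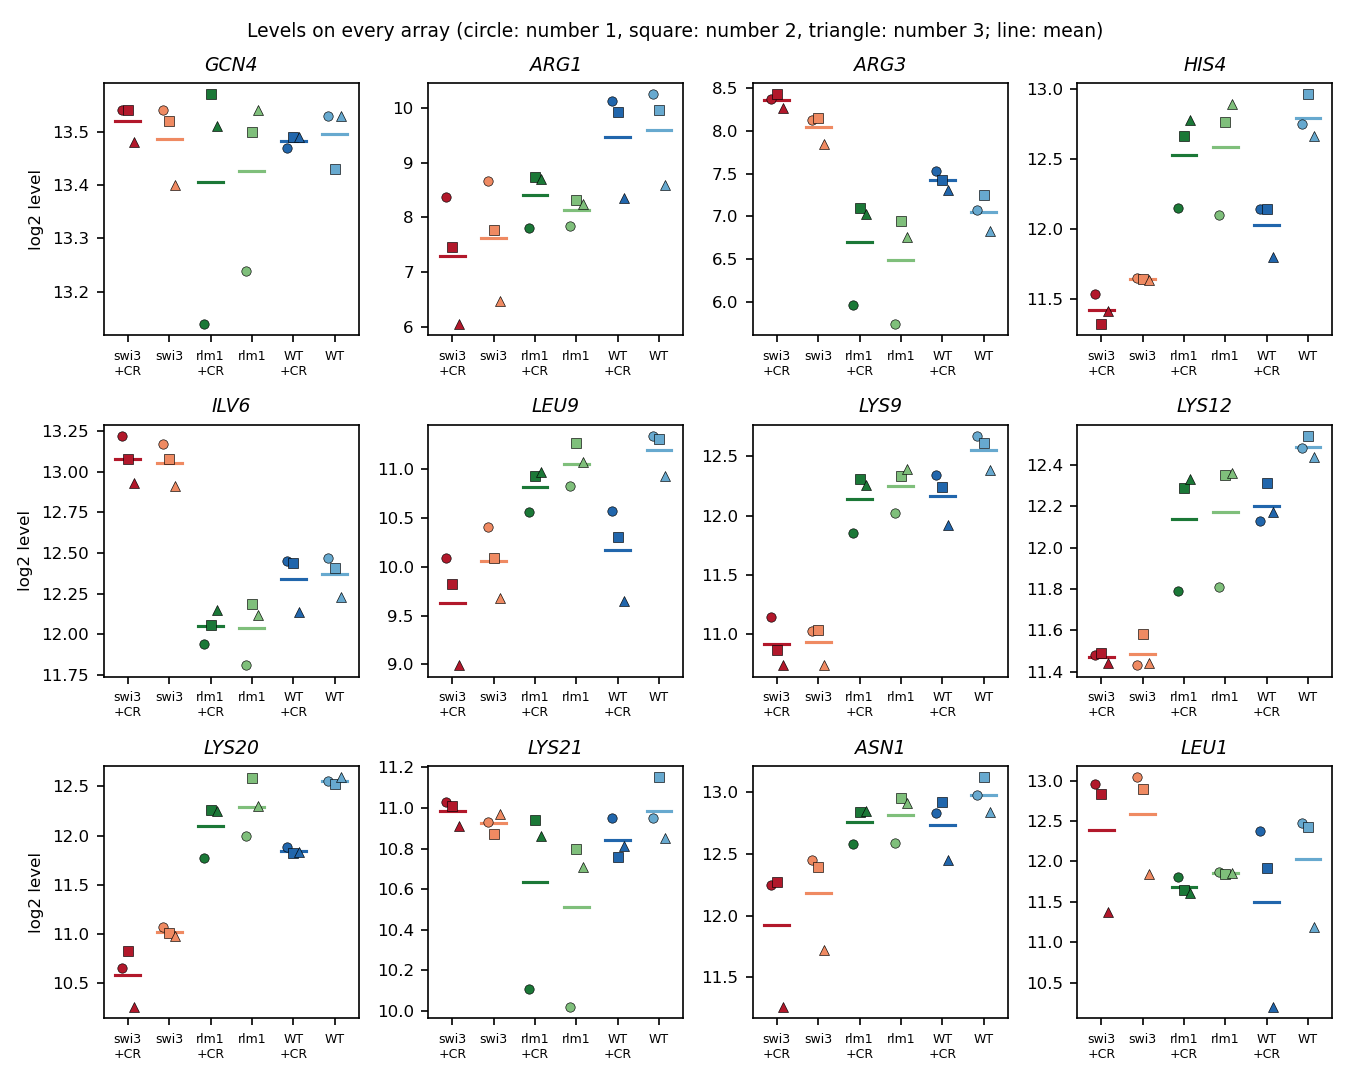
Log2 level on each of the 18 arrays for 12 of the genes, with swi3 on the left, rlm1 in the middle and the wild type on the right, each with Congo Red (+CR) before no dye. Symbols give the array number, lines the group means, and vertical axes differ between panels and do not start at 0. LYS9, LYS12 and LYS20 are low in both swi3 groups and ILV6 is high, while ARG1 and LEU1 spread widely within the swi3 and wild-type groups.

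Other genes of the same pathways and their regulators were read beside these. Of 28 other pathway genes, 25 were measured, and 5 were called in swi3 without dye (1 higher, 4 lower) and 6 with dye (2 higher, 4 lower). These shares, 20% and 24%, were close to the 26.2% and 22.1% of all features. ARO9, which encodes an aromatic aminotransferase induced by aromatic amino acids, averaged 6.93 ± 0.42 in swi3 and 10.77 ± 0.26 in the wild type with dye, and 6.72 ± 0.78 and 10.43 ± 0.21 without it (SD, n = 3 each). Its differences were -3.84 and -3.71 (adjusted p = 1.47e-06 and 1.85e-06, limma), and the swi3 levels were near background. SER3, the gene of a phosphoglycerate dehydrogenase of serine synthesis that is known to be repressed with the help of SWI/SNF, averaged 11.53 ± 0.14 in swi3 and 9.45 ± 0.19 in the wild type with dye, and 11.70 ± 0.16 and 9.87 ± 0.36 without it. It rose by 2.08 and 1.83 (adjusted p = 9.03e-04 and 0.00255). BAT2 (a branched-chain aminotransferase) and GLY1 (threonine aldolase) fell in both conditions, by 0.87 and 0.52 with dye and by 0.97 and 0.52 without it. PRO1 (glutamate kinase of proline synthesis) fell by 0.63 without dye. TYR1 (prephenate dehydrogenase of tyrosine synthesis) fell by 0.95 and HIS6 (an isomerase of the histidine pathway) rose by 0.62 with dye. The HIS6 call (adjusted p = 0.0494) was lost in 14 of 26 settings, and the PRO1 call in 4. With centred arrays GLY1 differed by -0.17 with dye and -0.16 without it and was not called.

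Of the 15 regulators, 7 were lower and 0 higher without dye (46.7%, against 26.2% of all features), with a median of -0.52 against -0.41. GCN2, the kinase that senses uncharged transfer RNA, fell by 0.82 (adjusted p = 0.0162, limma), and GCN20 and GCN1, which encode its partners, by 0.66 and 0.60. GCN3, a subunit gene of the initiation factor eIF2B through which the kinase acts, fell by 0.67. ARG82, an inositol polyphosphate kinase gene tied to arginine control, differed by -1.22 (adjusted p = 0.0447), ARG81, a sensor gene of the same system, by -1.03 without a call (adjusted p = 0.0656), and PHO2, a transcription factor gene of histidine and purine synthesis, by -1.02 (adjusted p = 0.0148). The ARG82 call was lost in 12 of 26 alternative settings, over which its difference reached -0.51. That of GCN1 was lost in 5. LEU3 was the remaining lower call, at -0.52 (adjusted p = 0.0441, limma). Its call was lost in 14 settings, and in 1 more its sign was reversed. With centred arrays GCN20 and GCN1 differed by -0.29 and -0.24 without dye, and neither was called. With dye, 5 regulators were lower and 1 higher (40%, against 22.1% of all features). The lower ones were PCL5 (-0.82), whose cyclin promotes the breakdown of Gcn4, GCN2 (-0.79), GCN20 (-0.58), LEU3 (-0.57), an activator gene of leucine synthesis, and MBF1 (-0.52), a coactivator gene of Gcn4. BAS1, whose product pairs with Pho2, rose by 0.42. With dye the calls of BAS1 and MBF1 were each lost in 12 of 26 settings, that of PCL5 in 11 and that of LEU3 in 9, and LEU3 differed by -0.05 with quantile normalization. The GCN2 call with dye was lost in 5 settings. GCN20 with dye differed by -0.24 with centred arrays and was not called. With centred arrays, 6 of the other pathway genes were higher and 3 lower without dye, and 9 were higher and 3 lower with it, beside the shares of all features given above for this setting. In the same setting 1 regulator was higher and 5 were lower without dye, and 1 was higher and 2 were lower with it.

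Of the 4 genes deleted in this background, MET17 averaged 4.34 in swi3 and 5.01 in the wild type with dye and 4.32 and 5.17 without it, and was called lower at a level near background. The 47 control probe sets that should see no yeast RNA were also lower in swi3. Their median was 4.28 to 4.46 on the swi3 arrays and 4.79 to 5.15 on the wild-type arrays. The part of this shift in the differences between the strains was not tested. Over the 4 genes, swi3 differed from the wild type by -1.03 to 0.27 with dye and by -0.96 to 0.06 without it, with 1 call in each condition. HIS3 read between 10.85 and 11.27 on average in all groups. The allele carried by BY4741 leaves part of this gene in place, and whether the probes lie in that part was not tested.

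In the wild type, none of the 43 genes was called after Congo Red (2.05% of all features were). An unadjusted p under 0.05 was found in limma for 8 of the 43, against 590 of all 5659 features. More of the 43 genes read lower than higher. In same-numbered arrays, 27 of the 43 were lower with Congo Red in all 3 pairs (62.8%, against 33.8% of all features), and 5 were higher in all 3 (11.6%, against 31.3%). The group medians were -0.15 for these genes and -0.01 for all features. Non-overlapping groups were seen for 11 genes on the low side and 3 on the high side, against 18.1% and 19% of all features.

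The arrays of a strain with the same number vary together (r from 0.42 to 0.91 over all features). With the replicate number as a block within a strain, 24 genes were called in the wild type, 2 higher and 22 lower, against 32.8% of all features in either direction. The lower calls are 51.2% of the genes against 16% of all features, and the higher calls 4.65% against 16.8%. The labels do not say what a number marks, so this pairing rests on the data alone. The fit across all 18 arrays takes its spread from rlm1 as well, and with the wild-type arrays alone and no block 5 genes were called (HIS4, LEU9, LYS12, LYS20 and SER1, all lower), a setting in which 17.9% of all features were called and 7.21% were lower.

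LEU9 was the gene with the largest wild-type response. It read 10.57, 10.30 and 9.65 with Congo Red against 11.34, 11.31 and 10.93 without it, so that no array overlapped. The difference was -1.02 (SE 0.29, adjusted p = 0.0962, limma, and 1.93e-04 with the block). HIS4 read 12.14, 12.14 and 11.80 with the dye against 12.75, 12.96 and 12.66 without it, also apart. Its difference was -0.76 (SE 0.20, adjusted p = 0.07, and 6.45e-05 with the block). LYS20 read 11.88, 11.82 and 11.83 with the dye against 12.55, 12.52 and 12.59 without it, with differences of -0.67, -0.70 and -0.76 in the 3 pairs. Its mean difference was -0.71 (SE 0.18, adjusted p = 0.0506, and 6.14e-04 with the block). The paralogs LEU4 and LYS21 differed by 0.12 and -0.14 and were called in neither fit.

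By branch, the median response in the wild type was -0.39 for the branched-chain genes, -0.39 for lysine, -0.25 for histidine, -0.14 for the aspartate family and serine, -0.08 for the aromatic genes and 0.10 for arginine. With the block, 6 of 8 branched-chain genes were lower, 5 of 7 lysine genes, 3 of 5 histidine genes, 3 of 6 of the aspartate family and serine, 3 of 9 aromatic genes and 2 of 2 of nitrogen assimilation. Of all features, 16% were lower and 16.8% higher with the block. The 2 genes higher with the block were arginine genes, ARG3 (0.37, block adjusted p = 0.0031) and ARG4 (0.25, block adjusted p = 0.0138). GCN4 itself differed by -0.01 (block adjusted p = 0.865). RLM1, a gene of the response to this dye, rose by 1.19 in the same arrays (adjusted p = 1.17e-04, limma).

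**Figure D3:**
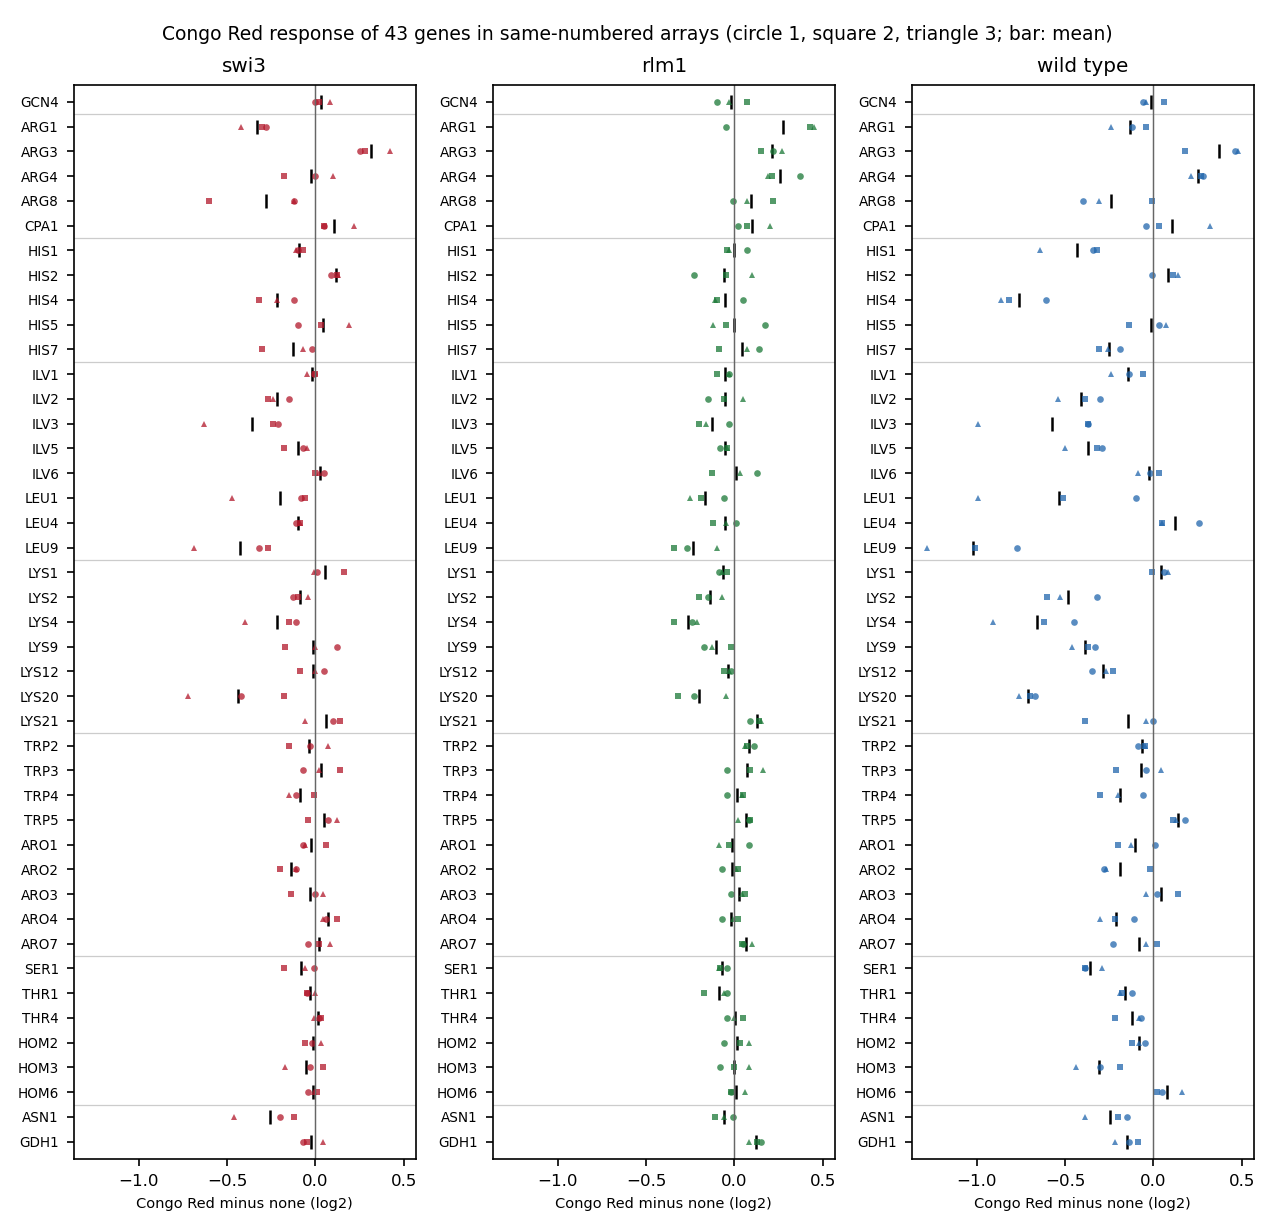
Difference between Congo Red and no dye in log2 units for the 43 genes in swi3 (left), rlm1 (middle) and the wild type (right). Symbols are the 3 same-numbered array pairs of a strain and black bars their means. In the wild type 27 genes lie left of 0 in all 3 pairs, with LEU9, HIS4 and LYS20 farthest left, while the rlm1 values lie nearer 0.

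In swi3, Congo Red left 0 of the 43 called (0.159% of all features were), with 1 unadjusted p under 0.05 in limma (LYS20, against 121 of 5659 features). The direction of the pairs was like that of the wild type: 18 genes were lower in all 3 pairs (41.9%, against 14% of all features) and 4 were higher (9.3%, against 23.5%). The sizes were small, with a median of -0.03 against 0.03 for all features, and the groups were apart for 3 genes on the low side and 1 on the high side, against 3.22% and 7.67% of all features. LYS20 had the largest difference, -0.44 (SE 0.18, adjusted p = 1, and 0.025 with the block), with pairs at -0.42, -0.18 and -0.72. It read 10.65, 10.83 and 10.26 with dye against 11.07, 11.01 and 10.98 without it, without overlap. LEU9 differed by -0.43 (block adjusted p = 0.0471) and ARG3 by 0.32 (block adjusted p = 0.0258), the only other genes called with the block, under which 7.23% of all features were.

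The dihydroxyacid dehydratase gene ILV3 showed how much 1 array can weigh. It read 12.91, 12.71 and 11.59 in swi3 with Congo Red against 13.12, 12.95 and 12.22 without it, a difference of -0.36, and without number 3 of the treated arrays the difference was 0.05.

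In rlm1, Congo Red left 0 of 43 called (0.0884% of all features), 0 with an unadjusted p under 0.05 in limma (67 of 5659 features), and 0 with the block (1.75% of all features). In the pairs, 14 genes were lower each time (32.6%, against 16.8% of all features) and 8 higher (18.6%, against 22.7%). The groups were apart for 3 genes on the low side and 0 on the high side, against 0.671% and 1.01% of all features. The 3 largest differences were 0.28 for ARG1, -0.26 for LYS4 and 0.26 for ARG4. ARG1 read 7.80, 8.74 and 8.70 with dye against 7.85, 8.31 and 8.25 without it, ARG4 read 10.33, 10.81 and 10.87 against 9.96, 10.60 and 10.68, and LYS4 read 10.44, 10.59 and 10.60 against 10.68, 10.93 and 10.81. Only LYS4 was without overlap. HIS4, which responded most clearly in the wild type with the block, read 12.15, 12.66 and 12.78 with dye against 12.10, 12.76 and 12.89 without it in rlm1, a difference of -0.05.

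The difference of the responses was tested with and without the block. Between rlm1 and the wild type it called 0 of 43 (0.318% of all features), with 1 unadjusted p under 0.05 (HIS4, with an adjusted p of 1 in limma), against 186 of 5659 features. HIS4 was called without the block under 3 other settings, given in the closing section. With the block it called 10 genes, all higher, that is, with a response less negative in rlm1 or positive there: GDH1, HIS1, HIS4, ILV2, ILV5, LEU9, LYS2, LYS12, LYS20 and SER1. That is 23.3% of the genes, against 4.74% of all features called higher. LEU9 had the largest difference, 0.78 (block adjusted p = 0.0145), followed by HIS4 at 0.71 (0.00234) and LYS20 at 0.51 (0.0405). In rlm1, LEU9 read 10.56, 10.93 and 10.97 with dye against 10.83, 11.27 and 11.07 without it, and LYS20 read 11.77, 12.26 and 12.25 against 12.00, 12.58 and 12.30, with overlap for both. Between swi3 and the wild type, 0 were called without the block (0.106% of all features), with 0 unadjusted p under 0.05 (108 of 5659 features). With the block 2 were called, HIS4 (0.54, block adjusted p = 0.015) and LYS2 (0.39, block adjusted p = 0.0353), against 1.52% of all features called higher. Both tests use the same wild-type arrays.

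The loss of Rlm1 itself gave no call among the 43, without dye (0.0707% of all features) or with it (3.64%). At an unadjusted p under 0.05 there were 13 genes without dye and 9 with it in limma, against 466 and 1162 of all 5659 features. The medians were -0.12 with dye and -0.31 without it, against -0.26 and -0.27 over all features. Without dye the rlm1 arrays lay below all wild-type arrays for 20 genes (46.5%, against 25.1% of all features) and above them for 0 (0.76% of all features), and with dye below for 8 (18.6%, against 29.2%) and above for 1 (2.33%, against 1.89%). The rlm1 arrays also differed in signs of RNA quality. The 3′ probe set of 25S ribosomal RNA averaged 11.61 and 12.74 with and without dye, against 8.70 and 9.76 in the wild type. Its 5′ probe set averaged 6.80 and 7.50, against 6.51 and 6.48. The 3′ minus 5′ level of control genes averaged 0.86 and 0.93, against 0.75 and 0.77. Number 1 of rlm1 read 1.03 and 1.15 there. Numbers 2 and 3 read 0.76 and 0.78 with dye and 0.86 and 0.79 without it, against 0.72 to 0.81 on the wild-type arrays. Their part in these counts was not tested. The 3 genes with the largest differences without dye were arginine genes. ARG1 read 7.85, 8.31 and 8.25 in rlm1 against 10.25, 9.97 and 8.60 in the wild type, a difference of -1.47 (adjusted p = 0.462). ARG4 read 9.96, 10.60 and 10.68 against 11.44, 11.46 and 10.70, a difference of -0.79, and ARG3 read 5.74, 6.95 and 6.76 against 7.07, 7.25 and 6.83, a difference of -0.57 that was -0.13 with quantile normalization. The rlm1 arrays were lower throughout for ARG1 and ARG4, by little against number 3 of the wild type, and the ARG3 groups overlapped. All rlm1 values of ARG3 and number 3 of the wild type lay under 7, near background.

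With Congo Red the same 3 arginine genes differed most, ARG1 by -1.06, ARG4 by -0.78 and ARG3 by -0.73 (adjusted p = 0.354, 0.139 and 0.194). With quantile normalization the ARG3 difference was -0.14, and with centred arrays it was -0.47 and was called (adjusted p = 0.0452). ARG1 read 7.80, 8.74 and 8.70 in rlm1 against 10.13, 9.93 and 8.36 in the wild type, with overlap. ARG4 read 10.33, 10.81 and 10.87 against 11.72, 11.73 and 10.91, and ARG3 read 5.96, 7.10 and 7.03 against 7.53, 7.43 and 7.31, both without overlap. For ARG3, number 1 of rlm1 lay under 7 and the other rlm1 values just above it. LEU9, HIS4 and HIS1 (the first enzyme of histidine synthesis, 0.39) stood on the other side. LEU9 read 10.56, 10.93 and 10.97 in rlm1 against 10.57, 10.30 and 9.65 in the wild type, a difference of 0.65 (adjusted p = 0.222). HIS4 read 12.15, 12.66 and 12.78 against 12.14, 12.14 and 11.80, a difference of 0.50 (adjusted p = 0.181). With both number 1 arrays of rlm1 left out, 6 genes were called with dye, HIS1, HIS4, LYS20 and SER1 higher and HOM6 and TRP5 lower, a setting in which 17.3% of all features were called (6.01% higher, 11.3% lower), and 0 without it.

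Among the arrays of 1 group, several of these genes moved far more than the features around them. In each of the 4 swi3 and wild-type groups, number 3 read at least 0.5 below the mean of numbers 1 and 2 for ARG1, ILV3, LEU1, LEU4 and LYS4. These are 5 of 43, or 11.6%, against 0.618% of all features, and the comparison was made after the values were seen. LEU1, which encodes isopropylmalate isomerase, read 12.96, 12.84 and 11.37 in swi3 with dye, 13.04, 12.90 and 11.84 in swi3 without it, 12.38, 11.92 and 10.20 in the wild type with dye and 12.48, 12.43 and 11.19 without it. Number 3 was thus lower by 1.53, 1.13, 1.95 and 1.27 in these groups. In rlm1 LEU1 read 11.81, 11.65 and 11.61 with dye and 11.87, 11.84 and 11.86 without it, with no such gap. For ARG1 the gaps were -1.87, -1.74, -1.67 and -1.51 in the same 4 groups, against 0.43 and 0.17 in rlm1 with and without dye. The labels do not say what the numbers mark.

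**Figure D4:**
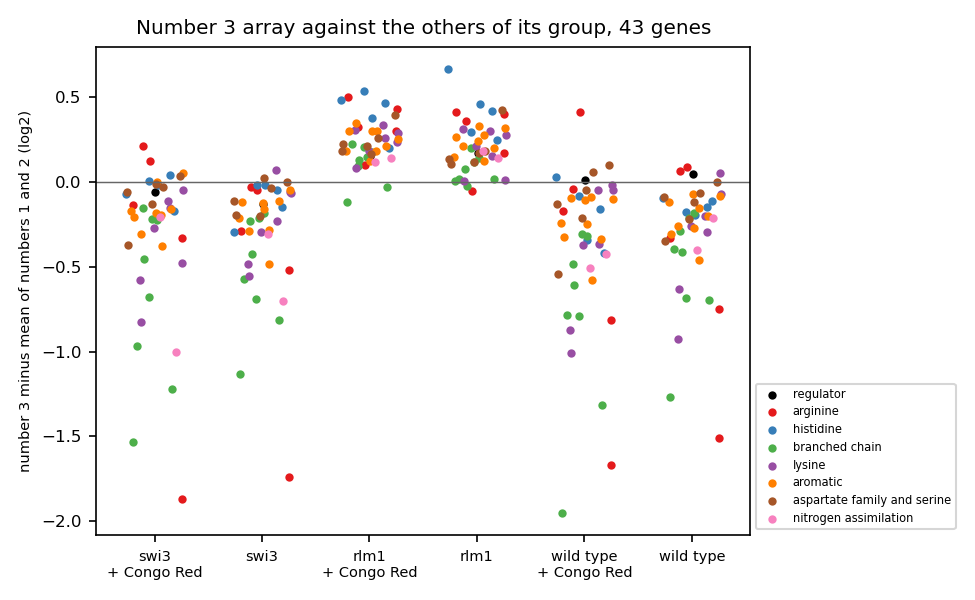
Log2 level on the number 3 array minus the mean of numbers 1 and 2 of the same group, for the 43 genes, with 1 point per gene coloured by branch and the 6 groups along the horizontal axis (sideways spread within a group has no meaning). In the swi3 and wild-type groups ARG1 (red) and LEU1 (green) lie below -1, and in both rlm1 groups most points lie above 0, where number 1 reads low.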

How the data were processed

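The deposited values are log2 probe set levels, and the authors made them with GCRMA, per the submitters' processing notes. The version and the arrays normalized together are not given in the sources used here. Of 5814 probe sets, 98 controls were left out, symbols came from the platform annotation (12 updated through the NCBI table of assembly R64), the probe set with the highest mean was kept per gene (49 dropped), and features had to reach 4 on at least 3 arrays (8 removed), which left 5659. A mean per group was estimated over the 18 arrays by lmFit and eBayes of limma 3.58.1 (R 4.3.3) for 9 contrasts, with Benjamini-Hochberg adjustment. The script was tested on simulated data. With 3 arrays per group, precision is limited by their number.

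Per-array values are given for GCN4, for up to 6 called genes with the largest change per comparison (up to 3 where none was called), and for the pairs LEU4 and LEU9, LYS20 and LYS21, ARO3 and ARO4. Genes of the other lists are named where called, up to 6 per list and comparison. LEU3 without dye, a call beyond these 6, and ARG81, which was not called, were named as well. Per-array values of LEU1 were added after the values were seen. The genes and lists were chosen with earlier results of these data known. Pairs for the block were the same-numbered arrays within a strain, because their deviations from the group means correlated in every strain (r from 0.419 to 0.909). Across strains r ranged from -0.195 to 0.670, so no pairing was assumed there, although swi3 and wild-type arrays of the same number had r of 0.670, 0.333 and 0.641 with dye and 0.503, 0.0872 and 0.597 without it. Alternatives were no filter, quantile normalization, arrays centred on their medians, a trended and robust prior, only the arrays compared, both rlm1 number 1 arrays left out, a replicate block, and each array left out. No sequences or genome coordinates are given, and scanner files were not used here.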

Additional observations from a re-analysis of the deposited data

How the results depend on the processing

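The number of genes called depended on the setting in most comparisons. For the wild-type response to Congo Red, 0 calls became 9 with quantile normalization, 6 with centred arrays, 2 with a trended and robust prior, 5 with only the arrays compared, 9 without both rlm1 number 1 arrays and 24 with the replicate block, and 0 to 2 with 1 array left out. The share of all features called, 2.05% at first, was 17.4%, 10.5%, 2.39%, 17.9%, 18.7% and 32.8% in the first 6 of these settings, in this order. For the settings with 1 array left out, here and below, the share is not given. Those counts can therefore also carry changes common to all features. For swi3 against the wild type without dye, 9 calls became 15 with centred arrays (29.9% of all features), 17 with only the arrays compared (64.9%), 17 without both rlm1 number 1 arrays (72.2%), and 6 to 12 with 1 array left out, where 6 came from leaving out number 1 or 2 of the wild type or number 2 or 3 of swi3. With dye, 8 calls became 16 with quantile normalization (33.3% of all features), 16 with centred arrays (31.9%), 15 without both rlm1 number 1 arrays (67.1%), and 4 to 9 with 1 array left out, where 4 came from number 1 or 2 of the wild type or number 3 of swi3, each with dye. For rlm1 against the wild type with dye, 0 calls became 10 with quantile normalization (23.2% of all features), 8 with centred arrays (16.5%), 1 with the trended prior (4.19%), 6 without both rlm1 number 1 arrays (17.3%), and 0 to 1 with 1 array left out. The replicate block gave 3 calls for the swi3 response (7.23% of all features). It gave 10 for rlm1 (10.5%) and 2 for swi3 (4.51%) when their responses were set against that of the wild type. With numbers also paired across strains, which the labels do not state, the block gave 12 calls for swi3 against the wild type without dye (41.4% of all features), adding HOM3, LYS4 and SER1, and with dye the same 8 as before (35.2%). The rlm1 difference had 1 call, HIS4, with quantile normalization (3.53% of all features), with centred arrays (1.54%) and without both rlm1 number 1 arrays (3%). GCN4 between swi3 and the wild type without dye changed sign with quantile normalization (0.045) and with centred arrays (0.36), and ranged from -0.043 to 0.033 with 1 array left out. With dye GCN4 was called only with centred arrays (0.38). Its wild-type response ranged from -0.047 to 0.0033 and that of ILV3 in swi3 from -0.63 to 0.047. LEU3 between swi3 and the wild type without dye was 0.00083 with quantile normalization. With fewer arrays, or with those of rlm1 number 1 left out, the spread in the fit changes by construction. The cause of the other changes was not tested.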
